A study of Mus musculus with 6 samples.

Results

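The Hox genes of the 4 mouse clusters were followed here on 6 arrays of embryonic stem (ES) cells. A member is a gene whose symbol is Hoxa, Hoxb, Hoxc or Hoxd followed by a number, with at least 1 probe set annotated to that symbol alone. This rule uses names and no measured value, and it found 33 members among the 18194 genes of the table. The brightest probe set stood for each gene. The HoxA cluster has 9 members, HoxB 9, HoxC 7 and HoxD 8. By paralogue number, which runs from the 3' to the 5' end of each cluster, 10 members belong to groups 1 to 4, 9 to groups 5 to 8 and 14 to groups 9 to 13. Other Hox genes have no probe set of their own in the annotation used and are not analysed here as members, and of these Hoxb8 and Hoxd4 appear on probe sets that name a neighbour too.

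All cells were mouse ES cells of a 129/B6 hybrid background, grown in serum medium with ESGRO (leukaemia inhibitory factor), per the labels. Clone 3031 is wild type for Yaf2 (Yaf2wt), and clones 3086 and 3087 carry the Yaf2 knockdown (Yaf2kd), which the characteristics call yaf2 mutant. From each clone, 1 array held cells given 4-hydroxytamoxifen at 0.8 µM over 24 hours, which was meant to deplete Rybp (OHT+), and 1 array held untreated cells with wild-type Rybp (OHT-). The groups are Yaf2wt OHT- (1 array, both genes intact), Yaf2wt OHT+ (1 array, Rybp-depleted), Yaf2kd OHT- (2 arrays, Yaf2 knocked down) and Yaf2kd OHT+ (2 arrays, both). The Yaf2wt side is 1 clone, so clone and Yaf2 status cannot be told apart. By the labels every sample given OHT was depleted of Rybp, so the drug and the loss of Rybp cannot be told apart either. The labels leave unstated how long after treatment the cells were harvested, and which samples grew on irradiated feeder fibroblasts and which on gelatin. The replicates are clones labelled as a biological duplicate, and a p-value here reflects the scatter among these few clones. In fits of the 4 groups that scatter comes from the Yaf2kd clones alone, as each Yaf2wt group is 1 array.

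Hox genes encode homeodomain transcription factors that give cells of the embryo their position along the head-to-tail axis. Within a cluster the genes are opened in sequence, 3' genes earlier and further forward, 5' genes later and further back. In ES cells the clusters are textbook Polycomb targets: Polycomb repressive complex 1, which ubiquitinates histone H2A, and Polycomb repressive complex 2, which methylates histone H3 at lysine 27, keep them quiet until differentiation. Rybp and its paralogue Yaf2 are alternative subunits of the variant forms of the first complex. The comparisons ask whether Hox transcript levels differed when Rybp, Yaf2 or both were depleted.

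The windows below are the 250 bases upstream of the annotated start of 4 members, from RefSeq (GRCm38.p6), shown because these 4 carry the results: Hoxa5 and Hoxa9 were the members above the dim limit defined below, and Hoxd1 and Hoxd8 had the smallest p-values under OHT. They lie at chr6:52204588-52204837 (minus strand, Hoxa5), chr6:52227371-52227620 (minus strand, Hoxa9), chr2:74762730-74762979 (plus strand, Hoxd1) and chr2:74704365-74704614 (plus strand, Hoxd8). Each runs 5' to 3' on the gene's strand, and capitals mark CpG dinucleotides.
Hoxa5: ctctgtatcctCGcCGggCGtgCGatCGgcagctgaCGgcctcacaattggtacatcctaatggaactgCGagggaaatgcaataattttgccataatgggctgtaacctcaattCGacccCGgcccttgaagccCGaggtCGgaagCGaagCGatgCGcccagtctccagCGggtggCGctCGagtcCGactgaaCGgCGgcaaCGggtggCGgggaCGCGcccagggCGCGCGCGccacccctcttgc
Hoxa9: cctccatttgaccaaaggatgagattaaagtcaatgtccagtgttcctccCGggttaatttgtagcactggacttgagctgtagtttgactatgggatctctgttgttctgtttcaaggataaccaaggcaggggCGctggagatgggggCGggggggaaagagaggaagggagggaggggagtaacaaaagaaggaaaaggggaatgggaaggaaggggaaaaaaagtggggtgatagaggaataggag
Hoxd1: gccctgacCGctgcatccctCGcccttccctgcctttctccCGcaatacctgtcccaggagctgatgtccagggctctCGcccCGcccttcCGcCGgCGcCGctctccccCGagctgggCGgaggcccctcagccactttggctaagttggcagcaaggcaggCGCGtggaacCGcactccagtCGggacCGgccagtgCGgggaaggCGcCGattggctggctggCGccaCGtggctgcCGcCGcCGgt
Hoxd8: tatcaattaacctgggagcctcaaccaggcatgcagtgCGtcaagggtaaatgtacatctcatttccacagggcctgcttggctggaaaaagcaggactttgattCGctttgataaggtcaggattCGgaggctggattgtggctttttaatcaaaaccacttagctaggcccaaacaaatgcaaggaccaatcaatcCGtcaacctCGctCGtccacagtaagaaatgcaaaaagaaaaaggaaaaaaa
The Hoxa5 window holds 28 CpG and the Hoxd1 window 24, against 6 for Hoxd8 and 3 for Hoxa9. The table held 21 such windows for 19 of the 33 members, with a median of 13 CpG (range 2 to 35). A ratio of observed to expected CpG of at least 0.6, a usual criterion for a CpG island, was met by 52.4% of the member windows and by 33.9% of all 32851 promoter windows. The letters CACGTG, the E-box read by dimers that contain Max, read the same on both strands and themselves hold a CpG. They were found in 4 of the 21 windows (19.05%), those of Hoxd1, Hoxd10, Hoxd13 and 1 of the Hoxd11 windows, against 6.02% of all windows of that length. A match describes the letters only.

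Most of the Hox cluster genes were dim. Values are probe-set intensities in linear units, on arrays that all hold the same sorted values, and a gene counts as dim when its mean over the 6 arrays (the geometric mean) lies under 106, the level that leaves 40% of all genes below. Of the 33 members 31 were dim, and Hoxa5 and Hoxa9 were not. Levels of different genes come from different probes and are set against this limit, not against each other. The median member intensity per array ran from 29.5 to 41.6, whereas the median over all genes ran from 212 to 233. Per array, 2 to 5 of the 33 members reached 106, against 59.8% to 61.5% of all genes. Fewer cells that express a Hox gene and less transcript per cell cannot be told apart in such bulk samples.

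**Figure D1:**
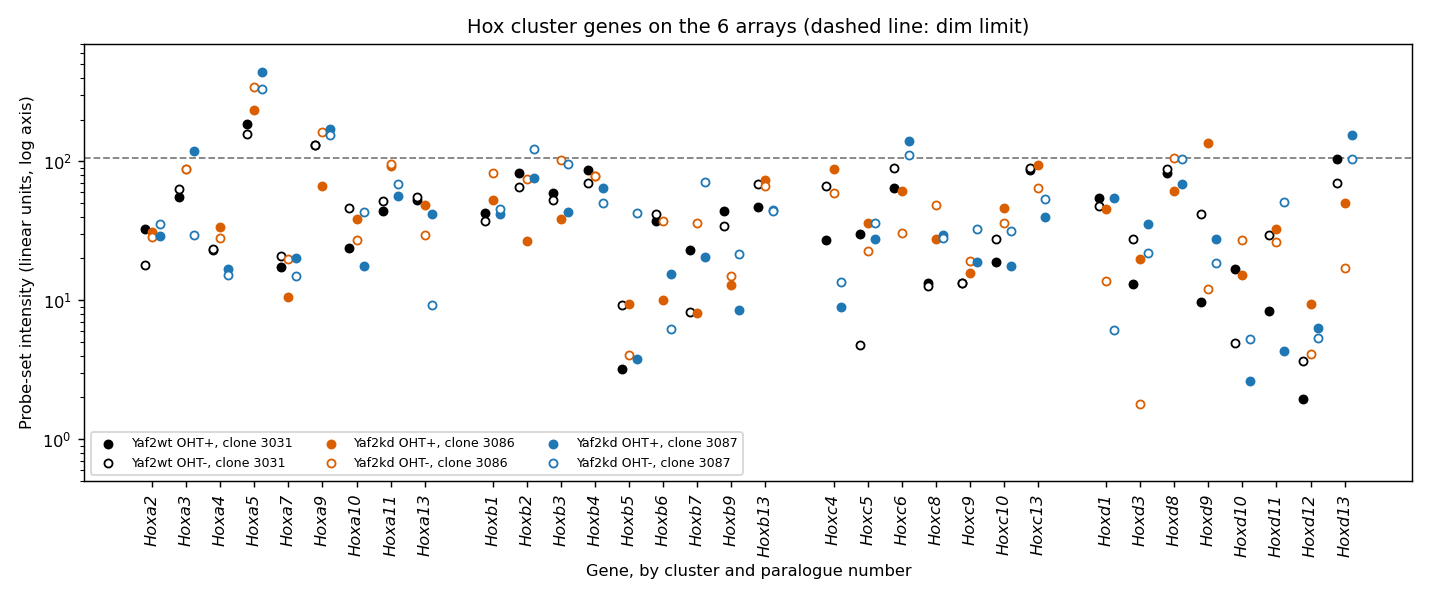
Intensity of each Hox cluster gene (linear units on a log axis) on the 6 arrays, ordered by cluster and paralogue number, with the dim limit of 106 as a dashed line. Filled points are OHT+ arrays, open points OHT- arrays, and colours are clones; only Hoxa5 stayed above the line on all 6 arrays.

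The plot of intensity by gene shows most members below the line with a scatter that differed from gene to gene. The 7 dim HoxA members lay between 9.21 (Hoxa13) and 118 (Hoxa3), and the 9 HoxB members between 3.18 (Hoxb5) and 123 (Hoxb2). The 7 HoxC members lay between 4.80 (Hoxc5) and 140 (Hoxc6), and the 8 HoxD members between 1.78 (Hoxd3) and 154 (Hoxd13). Each of those 4 highest values came from clone 3087, and none of the 4 genes was above the limit on more than 2 of its 6 arrays. Some dim members held steady values: Hoxb4 ran from 49.9 to 86.7 and Hoxb13 from 43.9 to 74.0 over the 6 arrays. Others spread more than 10-fold, such as Hoxd3 from 1.78 to 35.7 and Hoxd9 from 9.65 to 135. The clones labelled as duplicates differed at least 2-fold for 10 of the 33 members without OHT (30.3%) and for 14 with OHT (42.4%). Over all dim genes this share was 39.5% and 39.2%, and over the brighter genes 1.51% and 1.25%. The duplicates thus differed in Hox genes about as often as in dim genes at large.

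The targeted genes were read on the same arrays. Both Rybp probe sets also name the pseudogene Rybp-ps. Probe set 1421111_at gave 2014 ± 239 (SD, n = 3) without OHT and 85.8 ± 27.7 with it. Probe set 1428219_at went the other way, from 242 ± 82.4 to 3162 ± 332, and which part of Rybp is deleted is not stated in the labels. The Yaf2 probe sets stood at 34.9% and 37.7% of the Yaf2wt mean in the Yaf2kd arrays (277 ± 27.2 against 793, and 237 ± 18.1 against 629.5; SD, n = 4 and 2). All 16 measured ES cell markers, Pou5f1 and Nanog among them, lay above 106 on every array. Of these 11 had an OHT difference above 0 (median 0.19), and Fbxo15 was called with the intensity trend (1.36 ± 0.14; limma, adjusted p = 0.000562).

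With OHT, no Hox cluster gene passed the test over the 3 clones. In limma's fit of Yaf2 status and OHT on the 6 arrays, adjusted by Benjamini-Hochberg over 18194 genes at a threshold of 0.05, 0 of 33 members and 0% of all genes were called. At an unadjusted p under 0.05 there were 2 members, Hoxd1 and Hoxd8 (6.06%), against 8.41% of all genes (1531) and 10.2% of the dim genes. Leaving the dim genes out before the fit called 0.348% of the remaining genes and neither Hoxa5 nor Hoxa9. A prior variance that follows intensity called 0.33% of all genes and no member. The share of members at the unadjusted p was near those of all genes and of dim genes, as 1 member alone is 3.03%.

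Hoxa5, which patterns the lung and the neck and upper thorax, was measured by probe set 1443803_x_at. It read 158 without and 187 with OHT in clone 3031, 343 and 233 in clone 3086, and 333 and 441 in clone 3087. OHT+ and OHT- arrays overlapped, and the direction differed between the Yaf2kd clones. The fitted difference was 0.03 ± 0.28 (log2, SE, n = 6; 95% interval -0.74 to 0.79; limma, adjusted p = 0.985). The probe set's suffix marks possible cross-hybridisation. The other Hoxa5 probe set, 1448926_at, was dim on all 6 arrays, at 81.0 without and 49.8 with OHT in clone 3031 and between 53.0 and 57.6 on the 4 Yaf2kd arrays.

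Hoxa9, a 5' gene best known from haematopoietic progenitors and leukaemia, was measured by probe set 1421579_at. It stood at 132 without and 131 with OHT in clone 3031, at 164 and 66.3 in clone 3086, and at 154 and 170 in clone 3087. Of the 6 values, 66.3 was the 1 below the dim limit, and the groups overlapped. The fitted difference was -0.39 ± 0.41 (log2, SE; 95% interval -1.497 to 0.715; limma, adjusted p = 0.829). Without clone 3086 the difference was 0.065. The other Hoxa9 probe set, 1455626_at, ran from 24.4 to 75.3.

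Hoxd8, of the middle of the HoxD cluster, was the 1 member whose OHT+ and OHT- arrays did not overlap. Its probe set 1431099_at read 88.5 without and 82.6 with OHT in clone 3031, 106 and 60.9 in clone 3086, and 104 and 68.6 in clone 3087. Every OHT+ value lay under every OHT- value, all of them below the dim limit. Among all genes 7.08% had OHT+ arrays all below OHT- arrays (5.36% of the dim genes). Another 7.49% had them all above (6.4% of the dim genes), which no member did. The fitted difference was -0.50 ± 0.17 (95% interval -0.96 to -0.03; limma, adjusted p = 0.584). The interval took in 0 with the intensity trend (-1.25 to 0.25) and with clone as a block (-1.07 to 0.08). The other Hoxd8 probe set, 1433638_s_at, differed by 0.0036, with values of 76.9 and 59.0, 100 and 108, and 70.2 and 85.8 in the same order of clones.

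Hoxd1, the 3' end gene of the HoxD cluster, had the largest positive difference. It read 47.7 without and 54.3 with OHT in clone 3031, 13.7 and 45.7 in clone 3086, and 6.11 and 54.7 in clone 3087. The 3 OHT+ arrays lay between 45.7 and 54.7, while the OHT- arrays were low only in the Yaf2kd clones. The fitted difference was 1.70 ± 0.62 (95% interval 0.03 to 3.36; limma, adjusted p = 0.589, and 0.417 with the intensity trend). With clone as a block the interval was -0.35 to 3.74. All 6 values lay below the dim limit.

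**Figure D2:**
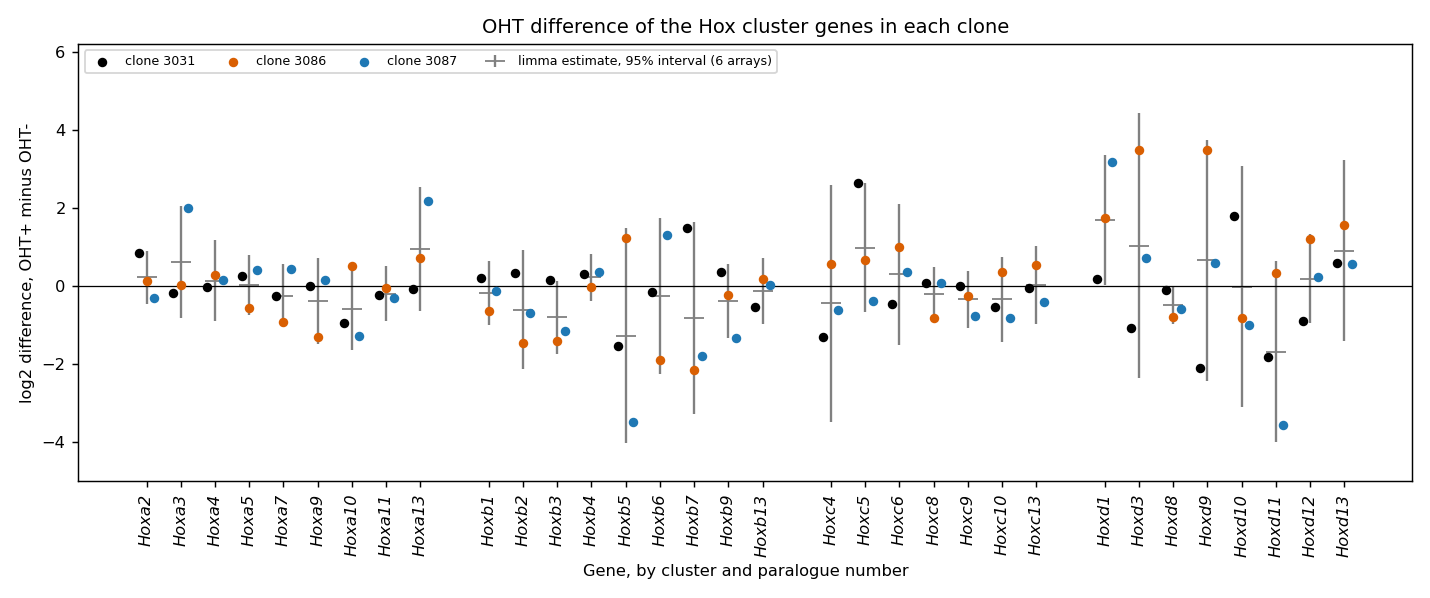
OHT difference (OHT+ minus OHT-, log2) of each Hox cluster gene in each of the 3 clones (points), with the limma estimate and its 95% interval (grey). The clones scatter to both sides of 0 for most genes, and in this fit, without clone as a block, the intervals of Hoxd1 and Hoxd8 leave out 0.

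Agreement among the clones was low. Hoxd1 and Hoxd13 were higher with OHT in all 3 clones, against 16.8% of all genes and 14.8% of the dim genes. Hoxa11 and Hoxd8 were lower in all 3, against 17.6% and 13.5%. Of 33 members these are 6.06% in each direction. Hoxd13, the most 5' HoxD gene and a digit patterning factor, read 69.3 without and 104 with OHT in clone 3031, 17.2 and 50.4 in clone 3086, and 105 and 154 in clone 3087. The untreated arrays ran from 17.2 to 105 and overlapped the treated ones across clones. In the fit without clone as a block the difference was 0.90 ± 0.86 (limma, adjusted p = 0.812). Within clones 3031, 3086 and 3087 this gene was higher with OHT by 0.58, 1.55 and 0.56 (log2, SD 0.57, n = 3). With clone as a block it was the 1 member at an unadjusted p under 0.05 in limma. In that fit the lowest adjusted p of any member was 0.571. Hoxa11, a limb zeugopod factor, differed by -0.20 ± 0.26 (adjusted p = 0.862).

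The OHT differences of members (log2) correlated between clones 3031 and 3086 at Pearson's r = -0.47, between 3031 and 3087 at 0.13, and between 3086 and 3087 at 0.21 (n = 33 genes, which share their arrays and are not independent replicates). Over all dim genes the values were 0.03, 0.04 and 0.03, and over the genes above the limit 0.38, 0.38 and 0.29. Against paralogue number the fitted OHT difference had r = -0.12 (Spearman's rho = -0.08). In clones 3031, 3086 and 3087 the median over the members was -0.05, 0.12 and -0.13, and 14, 18 and 16 members were higher with OHT.

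By cluster, 5 of 9 HoxA genes, 1 of 9 HoxB genes, 3 of 7 HoxC genes and 5 of 8 HoxD genes had a fitted OHT difference above 0. The medians were 0.03, -0.40, -0.22 and 0.42. The HoxB median came from the Yaf2kd clones, at -0.65 and -0.70, while clone 3031 gave 0.20. The HoxD median was -0.50, 1.38 and 0.40 in clones 3031, 3086 and 3087. By paralogue group the medians were 0.18 for groups 1 to 4, -0.25 for groups 5 to 8 and -0.16 for groups 9 to 13. The HoxA median was -0.08, 0.01 and 0.15, and the HoxC median -0.05, 0.54 and -0.42. No cluster's median had 1 sign in all 3 clones. Of the paralogue groups, groups 1 to 4 did, at 0.17, 0.06 and 0.01.

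**Figure D3:**
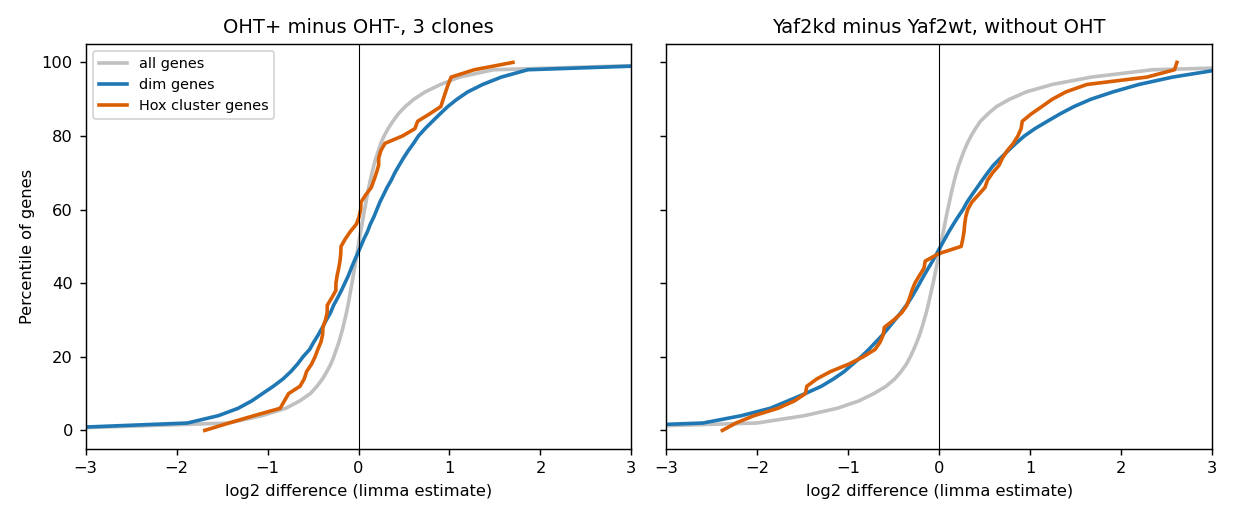
Cumulative distribution of the fitted log2 difference for Hox cluster genes (orange), all dim genes (blue) and all genes (grey), for OHT (left) and Yaf2 knockdown without OHT (right); the vertical axis is the percentile of genes. The orange line has its median at -0.19 on the left and 0.24 on the right. Its ends on the left, at -1.69 and 1.70, are dim members, which the blue line holds too.

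The median OHT difference over the 33 members was -0.19, with 14 above 0, against -0.0035 and 49.5% over all genes and 0.02 and 51.4% over the dim genes. The precision limits what these arrays could show. A member's 95% interval had a median half-width of 1.11 (2.15-fold), against 0.53 (1.44-fold) over all genes and 1.42 (2.67-fold) over the dim genes. For 17 members the interval lay below a 2-fold increase, for 23 below a 4-fold and for 28 below an 8-fold increase. These counts were 2638, 4795 and 6120 of the 7278 dim genes, and 12934, 15665 and 17031 of all 18194. For 7 members, Hoxa2, Hoxa5, Hoxa11, Hoxb4, Hoxb13, Hoxc8 and Hoxd8, the interval lay within 2-fold in both directions. The same held for 1082 of the dim genes and 10938 of all genes. The member count was 2 with the intensity trend (Hoxa5 and Hoxc13), where the median half-width was 1.395 (2.63-fold), and 9 with clone as a block. Hoxb4, for example, differed by 0.22 ± 0.23 (95% interval -0.39 to 0.83). In the plot of differences by percentile the members lay inside the range of the dim genes by construction. Both their ends are dim members, and 31 of the 33 members are counted among the dim genes. Within a clone the SD over the members was 0.96 to 1.35, against 1.401 to 1.499 for the dim genes.

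In the single Yaf2wt clone, which has no replicate of its own, 3 members were at least 2-fold higher with OHT (Hoxb7, Hoxc5 and Hoxd10; 9.09%, against 7.72% of all genes). Another 5 were at least 2-fold lower (Hoxb5, Hoxc4, Hoxd3, Hoxd9 and Hoxd11; 15.2%, against 7.46%). Among the dim genes the shares were 18.4% and 18.3%. The largest of these, Hoxc5, read 4.80 without and 30.1 with OHT. In clone 3086 it read 22.7 and 36.2, and in clone 3087 35.8 and 27.6. With the spread pooled from the Yaf2kd arrays, limma gave Hoxc5 2.65 ± 0.47 (adjusted p = 0.592) and called no member; Hoxc5 and Hoxa2 had an unadjusted p under 0.05, against 5.31% of all genes and 11.7% of the dim genes.

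In the Yaf2kd cells alone, where Rybp was depleted on top of the Yaf2 knockdown, 4 members had an unadjusted p under 0.05 (12.1%, against 6.79% of all genes and 11.6% of the dim genes). They were Hoxb3, Hoxb7, Hoxd1 and Hoxd8, and the lowest adjusted p was 0.438. At least 2-fold higher in both Yaf2kd clones was Hoxd1 (3.03%, against 2.25% of all genes and 4.85% of the dim genes). At least 2-fold lower in both were Hoxb3 and Hoxb7 (6.06%, against 2.01% and 4.96%). Hoxb3, a hindbrain gene, read 102 without and 38.2 with OHT in clone 3086 and 96.3 and 42.9 in clone 3087, while clone 3031 had 52.6 and 58.8. The treated Yaf2kd arrays lay below all other arrays, and the untreated Yaf2kd arrays above them (-1.29 ± 0.17; 95% interval -1.79 to -0.79; adjusted p = 0.438). The second Hoxb3 probe set, 1427605_at, read 52.7 without and 10.6 with OHT in clone 3031, 15.8 and 9.25 in clone 3086, and 8.71 and 6.91 in clone 3087. It was lower with OHT in all 3 clones and most so in clone 3031, unlike the first. Hoxb7 read 35.9 and 8.05, and 71.4 and 20.5 (-1.98 ± 0.66; adjusted p = 0.735).

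The difference of the OHT effects between Yaf2kd and Yaf2wt cells was tested as an interaction. At an unadjusted p under 0.05 were Hoxb3, Hoxb7, Hoxc5 and Hoxd12 (12.1%, against 4.58% of all genes and 10.8% of the dim genes), and no member passed the adjusted threshold. Hoxb3 gave -1.45 ± 0.29 (adjusted p = 0.691) on its first probe set, a pattern the second did not share, and Hoxc5 -2.50 ± 0.57 (adjusted p = 0.766). Hoxb7 rose with OHT in clone 3031, from 8.28 to 23.1. A probe set that names Hoxb8 and Hoxb7 together fell there, from 46.7 to 23.6. The median over the members was 0.06 with a median half-width of 2.71 (6.54-fold), so this comparison held little precision.

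The Yaf2 knockdown without OHT compares 2 Yaf2kd clones with 1 Yaf2wt clone. In limma's fit of the 4 groups 0 of 33 members and 0% of all genes passed the adjusted threshold. At an unadjusted p under 0.05 there were 6 members (18.2%, against 5.5% of all genes and 12.3% of the dim genes). Hoxa2, Hoxb3, Hoxb7, Hoxc5 and Hoxc8 read higher in Yaf2kd on the probe set used, and Hoxd1 lower. The other Hoxb3 probe set differed the opposite way, at -2.17 against 0.91. The other Hoxc5 probe sets gave 1.93 and -0.49, and the mean of all 3 gave 1.34. The median over members was 0.24 with 17 above 0, against 0.01 over all genes.

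Among these, Hoxc5, a neck-level gene, read 4.80 in clone 3031 and 22.7 and 35.8 in clones 3086 and 3087 (2.57 ± 0.41; adjusted p = 0.469). Hoxb7 read 8.28 against 35.9 and 71.4 (2.61 ± 0.81; adjusted p = 0.863). Hoxc8, a thoracic identity gene, read 12.7 against 48.5 and 28.0 (1.54 ± 0.42; adjusted p = 0.770). All these values were dim. In the other direction Hoxd1 read 47.7 against 13.7 and 6.11 (-2.38 ± 0.59; adjusted p = 0.721), Hoxd3 27.7 against 1.78 and 21.9, and Hoxa13, a limb and genital tract gene, 55.1 against 29.5 and 9.21. The last 2 had wide errors, at -2.15 ± 1.75 and -1.74 ± 0.81 (adjusted p = 0.9996 for both).

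For Hoxa5, 1 of the 2 members above the limit, the 4 Yaf2kd arrays lay at 233 to 441 and the 2 Yaf2wt arrays at 158 and 187, so the groups did not overlap. Without OHT the difference was 1.10 ± 0.47 (95% interval -0.30 to 2.50; adjusted p = 0.9996), and with OHT 0.78 ± 0.47. The interval without OHT left out 0 with the dim genes left out (0.21 to 1.99) and with the intensity trend (0.19 to 2.01). Neither of these fits called any gene. The other Hoxa5 probe set went the opposite way without OHT, at -0.55. All Yaf2kd arrays lay above both Yaf2wt arrays for 5 members, Hoxa5, Hoxa11, Hoxc8, Hoxc9 and Hoxd12 (15.2%, against 11% of all genes and 8.19% of the dim genes), and below them for Hoxa13 and Hoxb9 (6.06%, against 7.5% and 5.07%).

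With OHT the Yaf2 difference had 2 members at an unadjusted p under 0.05, Hoxd12 and Hoxb9 (6.06%, against 5.11% of all genes and 10.4% of the dim genes). Hoxb9, of the thoracic level, read 44.0 in clone 3031 and 12.9 and 8.57 in the Yaf2kd clones (-2.07 ± 0.41; adjusted p = 0.699). The loss of both, Yaf2kd OHT+ set against untreated Yaf2wt, had 3, Hoxa2, Hoxb9 and Hoxc5 (9.09%, against 6.99% of all genes and 12.7% of the dim genes). Hoxc5 gave 2.72 ± 0.41 (adjusted p = 0.405) and Hoxb9 -1.70 ± 0.41 (adjusted p = 0.631). The latter comparison shares its Yaf2wt array with the comparison without OHT, so for Hoxc5 the same value of 4.80 enters both. That value also enters the Hoxc5 OHT difference in the Yaf2wt clone and the difference of the OHT effects. No member passed limma's adjusted threshold for the Yaf2 difference with OHT or for the loss of both.

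**Figure D4:**
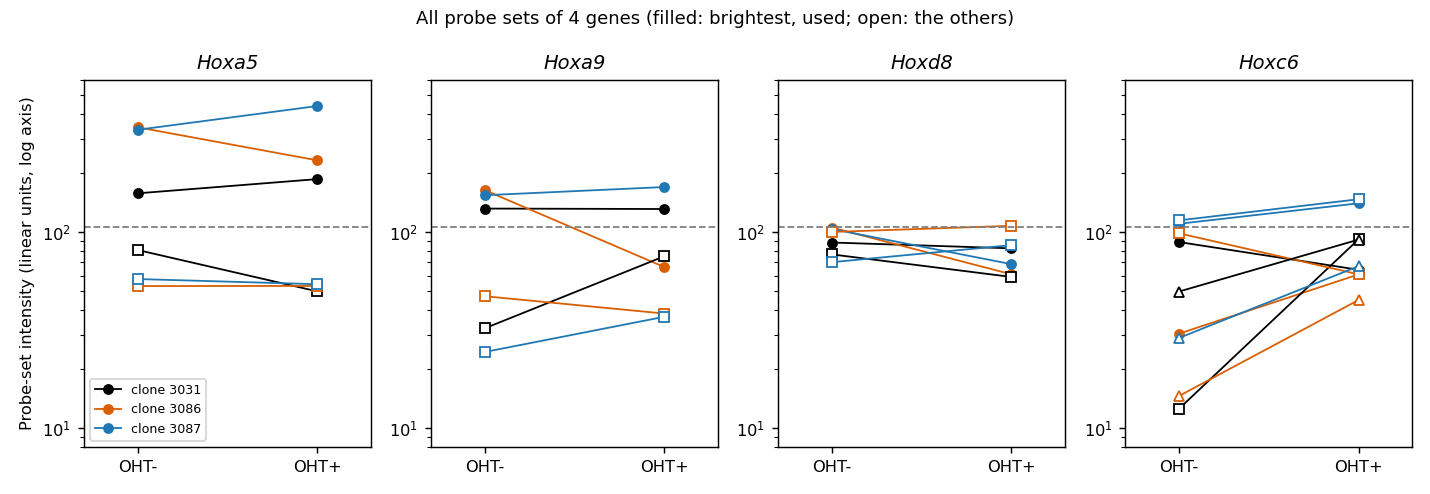
All probe sets of Hoxa5, Hoxa9, Hoxd8 and Hoxc6 (linear intensity on a log axis) without and with OHT, 1 line per clone and probe set; filled symbols are the brightest probe set used for the gene. Probe sets of 1 gene can differ in level and in the OHT difference. For Hoxc6 the 3 probe sets gave fitted OHT differences of 0.29, 0.85 and 1.24, and only the last was higher in every clone. The 2 Hoxa9 probe sets, at -0.39 and 0.51, differed in direction.

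Different probe sets of a gene often disagreed. The 33 members have 48 probe sets, of which 2 lay at or above the dim limit. Of the 11 members with several, 4 had the same sign of the OHT difference on all probe sets and 7 did not. Hoxc6, a forelimb-level gene, has 3. Its probe set 1427454_at read 49.7 without and 91.6 with OHT in clone 3031, 14.6 and 45.0 in clone 3086, and 28.8 and 67.0 in clone 3087. It was higher in all 3 clones (1.24 ± 0.36; limma over all 34958 probe sets, adjusted p = 0.649). In that fit 3 of the 48 probe sets had an unadjusted p under 0.05, against 7.05% of all. The 2 others of Hoxc6, 1427362_x_at and 1427361_at, differed by 0.29 and 0.85, and neither was higher in all 3 clones. The first fell from 89.0 to 64.2 in clone 3031. The second fell from 98.6 to 60.85 in clone 3086, and read 12.5 without and 91.9 with OHT in clone 3031. The Yaf2 differences of these 2 without OHT were -0.62 and 3.09, against -1.28 for 1427454_at.

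Genes that act with or on the Hox clusters were counted from lists chosen for them. Of 8 measured TALE cofactors, which bind DNA beside Hox proteins, 2 had an OHT difference above 0 and none was called (median -0.32; Pbx3 -0.41 ± 0.12, Meis2 -0.86 ± 0.40). The 6 ParaHox and caudal genes, regulators of posterior Hox genes among them, were all dim, with a median of 0.11. Of 17 measured genes that flank the clusters, 11 were above 0 with a median of 0.11. Calcoco2, near HoxB, differed by 0.94 ± 0.20 (limma, adjusted p = 0.465). Of 15 trithorax and H3K27 demethylase genes, which oppose Polycomb, 3 were above 0 with a median of -0.07. In the retinoic acid route, which induces Hox genes in embryos, 6 of 15 were above 0 (median -0.16). None of these lists had a member called over all genes. Crabp1, a retinoic acid binding protein, was called only with the intensity trend (1.53 ± 0.16; adjusted p = 0.00104) or with the dim genes left out (adjusted p = 0.0119). Crabp2, of the same list, was lower with OHT in every clone (-0.49 ± 0.16) and was not called.

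Markers of other cell types were set beside the Hox values. Of 23 measured fibroblast (feeder) markers, 19 had an OHT difference above 0 (median 0.42; clone medians 0.27, 0.31 and 0.47), with none called. Their summed intensity was 10920 to 16250 with OHT and 10180 to 14930 without, 12 to 18 of 23 lay above 106 on an array, and none was at 0. Of 13 posterior mesoderm markers, 8 were above 0 (median 0.17), and Meox1, a dim somite gene, differed by 2.85 ± 0.18 (limma, adjusted p = 0.242). Nkx1-2, also dim, differed by -1.69 ± 0.55. Of 11 neural markers 3 were above 0 (median -0.17), with none called. Nes (-0.63 ± 0.13), Sox1 (-1.09 ± 0.24) and Pax6 (-0.68 ± 0.17) were among those lower in every clone. The part of such cells in the Hox values was not tested.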

How the data were processed

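The table deposited by the authors holds 1 linear intensity per probe set and array, and its sorted values are identical on all 6 arrays. Per the submitters' processing notes, Affymetrix Expression Console and RMA were used; no role or version is stated there. The array is called 430A 2.0 in the series text, yet 45101 probe sets were deposited, of which 34958 name 1 gene, 932 several and 9211 none. Values ran from 0.140 to 45795. The plan had assumed log2 expression; the log2 of the intensity was taken with no pseudocount. Each gene took its brightest probe set by mean log2 over the 6 arrays (18194 genes). Counts of reads have no meaning for arrays, and their number limits the precision.

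Members and gene lists were chosen with earlier results of these data known. Tests used lmFit and eBayes of limma 3.58.1 (R 4.3.3), adjusting by Benjamini-Hochberg over every gene in the fit (0.05), with terms for Yaf2 status plus OHT, or for the 4 groups, in which the lone Yaf2wt arrays are taken to vary like the Yaf2kd ones. The fit was tested on simulated data with known OHT effects, independent noise on each array and no clone or Yaf2 effect. Such data cannot check the pairing by clone or the reliance on a single Yaf2wt clone. Values on every array are given for members at or above the dim limit, for called members and for those of the largest effects whose groups do not overlap (up to 5 in each direction for OHT, 3 for Yaf2 without OHT); for each other list, up to 4 genes by unadjusted p. Hoxa11, Hoxb3, Hoxb4, Hoxb9, Hoxb13, Hoxc6, Hoxd9 and Hoxd13 were named after their values were seen. Within a Yaf2 status, same-numbered arrays are the treated and untreated cells of 1 clone, and in the 2 Yaf2kd clones their deviations from the group means correlated at 0.12 over the 10916 genes at or above the limit (0.26 over the members). Alternatives left out dim genes, let the prior follow intensity, added a pseudocount of 32, set values under 64 to 64, averaged a gene's probe sets, fitted each probe set, blocked by clone, left out each array or clone, and, chosen after seeing the data, took the brightest probe set by arithmetic mean.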

Additional observations from a re-analysis of the deposited data

How the results depend on the processing

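No member was called in any comparison under any of the alternatives run, including the replicate block by clone, in which 0 of 33 members were called for OHT and the median stayed at -0.19 (lowest adjusted p 0.571). At an unadjusted p under 0.05 the block left Hoxd13 (1 of 33 members, against 8.59% of all genes) in place of Hoxd1 and Hoxd8. The member medians lay close to 0 and moved. The OHT median of -0.19 became 0 with values under 64 set to 64 and ran from -0.21 to 0.0062 when 1 array or clone was left out. In Yaf2kd cells it became 0 with that floor and ran from -0.29 to 0.17. The Yaf2 median without OHT, 0.24, was 0.044 with the pseudocount, 0 with the floor, 0.18 with averaged probe sets, 0.28 by arithmetic mean, 0.085 over all 48 probe sets, and 0.18 to 0.23 with 1 array left out. The median difference of the OHT effects ran from -0.28 to 0.19. The 8 members at least 2-fold apart in the Yaf2wt clone became 0 with the pseudocount, 0 with the floor, and 13 of 48 probe sets. Hoxa5 under OHT was -0.12 with averaged probe sets and -0.21 to 0.32 with an array or clone left out, and Hoxa9 0.059 and -0.72 to 0.065. The floor and the pseudocount compress values this dim by construction; for the other settings the cause was not tested. No background or detection value was used here, and dim means only the lower 40% of genes.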

Other observations

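Transcripts antisense to Hox genes and probe sets shared by neighbouring Hox genes were outside the gene comparisons and are given as values. Hoxb5os, measured by 1 probe set, read 50.6 without and 73.1 with OHT in clone 3031, 85.1 and 107 in clone 3086, and 57.9 and 72.7 in clone 3087. It was higher in 3 of 3 clones, by 0.40 ± 0.12 (log2, SD, n = 3), though the OHT+ and OHT- arrays overlapped across clones. Of all genes 16.8% were higher in all 3 clones (14.8% of the dim genes). Hoxa11os has 2 probe sets that went opposite ways in all 3 clones, both dim. A probe set that names Hoxb8 and Hoxb7 together read 46.7 without and 23.6 with OHT in clone 3031, 32.01 and 6.63 in clone 3086, and 39.4 and 25.4 in clone 3087. All OHT+ values lay below all OHT- values, with a mean difference of -1.296 ± 0.863 (log2, SD, n = 3), all of them dim. OHT+ arrays all below OHT- arrays were seen in 7.08% of all genes (5.36% of the dim genes). The brighter of the probe sets that name Hoxd4 and Hoxd3 lay at 14.9 and 26.7 on the Yaf2wt arrays and at 33.0 to 102 on the Yaf2kd arrays. The other one was lower on average in Yaf2kd (57.5% of the Yaf2wt mean, against 349%), at 2.40 to 20.1 against 3.03 and 28.4. Of all genes 11% had all Yaf2kd arrays above both Yaf2wt arrays (8.19% of the dim genes). Whether the array counts sense and antisense RNA apart at these sites was not tested.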
